A study of Homo sapiens with 24 samples.

Results

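The ATP-binding cassette (ABC) transporter genes were examined on 24 arrays of 2 human inflammatory breast cancer cell lines, SUM149PT and SUM190PT. Members were all genes whose symbol in the array annotation begins with ABCA, ABCB, ABCC, ABCD, ABCE, ABCF or ABCG followed by a digit, without pseudogenes, and this gave 43 genes of the 18417 measured. They fell into 7 subfamilies, with 12 genes in ABCA, 8 in ABCB, 11 in ABCC, 3 in ABCD, 1 in ABCE, 3 in ABCF and 5 in ABCG. The symbol rule also kept ABCC13, which RefSeq lists as a transcribed pseudogene. Each line received vehicle (ethanol and DMSO), 10 nM 17β-estradiol, CG-1521 or estradiol with CG-1521 for 48 h, with 3 arrays in each of the 8 groups. CG-1521 is a histone deacetylase inhibitor according to the series title, and such enzymes take acetyl groups off histones, among other targets. The dose was 7.5 µM in SUM149PT, which grew in medium with serum, and 5 µM in SUM190PT, which was treated without serum, so line, dose and medium cannot be told apart. Both lines are given as negative for the estrogen receptor and mutant for p53, and each is a single established line. Values are log2 expression, so a difference of 1 is a doubling, and a gene was called at a Benjamini-Hochberg adjusted p under 0.05 in limma, adjusted over all 18417 genes.

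ABC proteins are membrane pumps that bind and hydrolyse ATP to move substrates across a membrane. Some members of the ABCB, ABCC and ABCG subfamilies expel drugs and conjugated toxins and were first studied in tumour cells that resist chemotherapy. Most ABCA members carry lipids, most ABCD members carry fatty acids into peroxisomes, and several ABCB members sit in mitochondria or lysosomes. ABCE1 and the ABCF proteins have the ATP-binding domains but no membrane segments, and act on ribosomes and translation.

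Arrays of a group correlated across all genes at 0.9946 to 0.996 in SUM149PT and at 0.9807 to 0.9957 in SUM190PT. Array 3 of the SUM190PT vehicle group and array 3 of its estradiol group differed from the rest of their groups in the 6 MCM genes of the replicative helicase, with a median log2 deviation of −1.78 and −1.81. Results in SUM190PT are therefore also given without these arrays where their call or count changes. The 6 epithelial markers measured had group means between 10.1 and 12.5, and the summed level of the 7 fibroblast markers, as log2, lay at 8.11 to 8.28 in SUM149PT and 7.98 to 8.53 in SUM190PT. That of the 6 leukocyte markers lay at 7.43 to 7.67 and 7.10 to 7.76, and that of the 6 endothelial markers at 6.59 to 6.81 and 6.75 to 7.43. Of the markers of these 3 other cell types, DCN (−0.96) and CD14 (−0.29) fell with CG-1521 against vehicle in SUM149PT, and 0 were called in SUM190PT. Under estradiol 2 fibroblast and 2 leukocyte markers rose and 1 endothelial marker fell in SUM190PT, while 1 fibroblast marker fell and 1 endothelial marker rose in SUM149PT. In vehicle DCN (1.19) and CD14 (0.57) were higher and PECAM1 (−1.32) lower in SUM149PT. Among the epithelial markers CDH1 rose (0.48) and KRT7 fell (−0.49) with CG-1521 against vehicle in SUM149PT, and KRT19 (−0.59) and KRT8 (−0.51) fell in SUM190PT. Under estradiol 1 epithelial marker rose and 3 fell with CG-1521 in SUM149PT, and 1 fell in SUM190PT. In vehicle 1 epithelial marker was higher and 3 were lower in SUM149PT than in SUM190PT. The part of these markers in the results was not tested. The deposited values hold no detection calls, so low values could not be separated from background.

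Promoters are shown for the 5 members that changed at least 2-fold with CG-1521 against vehicle in either line, the largest responses of the family. They are RefSeq sequences of GRCh38.p14, from 250 bases before to 50 bases after an annotated transcription start, 5′ to 3′ on the gene's strand, with CpG dinucleotides in capitals. For ABCC2, ABCC11, ABCC12 and ABCA12 the window of the most upstream start is given (chr10:99782390-99782689, plus strand; chr16:48247490-48247789, minus; chr16:48155944-48156243, minus; chr2:215138577-215138876, minus). For ABCG2 it is instead the window with most CpG of its 5 (chr4:88158590-88158889, minus).
ABCC2: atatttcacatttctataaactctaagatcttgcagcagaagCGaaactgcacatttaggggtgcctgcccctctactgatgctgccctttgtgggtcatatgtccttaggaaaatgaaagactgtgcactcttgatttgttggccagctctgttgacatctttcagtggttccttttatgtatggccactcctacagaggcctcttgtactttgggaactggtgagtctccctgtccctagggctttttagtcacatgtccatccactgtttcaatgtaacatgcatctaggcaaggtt
ABCC11: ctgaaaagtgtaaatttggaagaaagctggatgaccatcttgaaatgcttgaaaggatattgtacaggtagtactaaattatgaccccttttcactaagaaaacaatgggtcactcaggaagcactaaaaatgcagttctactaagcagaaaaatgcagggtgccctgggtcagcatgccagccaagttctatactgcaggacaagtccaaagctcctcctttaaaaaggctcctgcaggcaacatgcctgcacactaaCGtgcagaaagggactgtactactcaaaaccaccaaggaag
ABCC12: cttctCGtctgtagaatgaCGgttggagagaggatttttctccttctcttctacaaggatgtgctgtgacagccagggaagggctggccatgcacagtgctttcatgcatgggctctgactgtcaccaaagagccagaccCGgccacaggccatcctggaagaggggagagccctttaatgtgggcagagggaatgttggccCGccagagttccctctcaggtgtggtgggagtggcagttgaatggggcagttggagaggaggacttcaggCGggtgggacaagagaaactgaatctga
ABCA12: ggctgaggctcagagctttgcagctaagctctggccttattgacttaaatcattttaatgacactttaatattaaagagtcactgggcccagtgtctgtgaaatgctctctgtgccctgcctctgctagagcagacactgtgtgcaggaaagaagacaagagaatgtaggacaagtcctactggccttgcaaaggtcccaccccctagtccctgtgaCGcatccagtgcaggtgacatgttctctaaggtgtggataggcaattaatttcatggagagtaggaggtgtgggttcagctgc
ABCG2: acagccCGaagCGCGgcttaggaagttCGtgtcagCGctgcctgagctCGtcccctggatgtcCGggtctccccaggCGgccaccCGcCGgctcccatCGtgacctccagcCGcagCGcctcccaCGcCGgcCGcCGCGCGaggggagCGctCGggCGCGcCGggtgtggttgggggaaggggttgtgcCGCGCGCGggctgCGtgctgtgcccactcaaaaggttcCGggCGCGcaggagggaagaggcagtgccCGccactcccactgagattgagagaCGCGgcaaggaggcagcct
The ABCC2, ABCC11 and ABCA12 windows each hold 1 CpG, the ABCC12 window holds 5 and the ABCG2 window 35. This order depends on the start taken, since the most upstream window of ABCG2 holds 3 CpG and the richest window of ABCC11 holds 28. RefSeq windows were found for 34 of the 43 members, 51 windows in all, with a median of 18 CpG against 14 in all 35116 windows. Taking each gene's richest window, the members lower with CG-1521 in SUM149PT (7 of 7 with a window) held 28 to 47 CpG with a median of 37, those higher (6 of 8 with a window) 1 to 37 with a median of 25, and those not called (21 of 28) 1 to 66 with a median of 16. In SUM190PT those lower (6 of 6) held 10 to 42 with a median of 30, and those not called (27 of 35) 1 to 66 with a median of 23. The 1 of 2 higher members with a window held 1. Members never called in any contrast (11 of 17) had a median of 8, against 29 in the others (23 of 26). Of those 17, 16 lay below the median gene level, and the part of expression level was not tested. The ranges overlap, and a gene with more annotated starts has more chances of a rich window. The motif TGACNNNGC, the core of the antioxidant response element, was present on either strand in 23.5% of the members' windows and 13.3% of all windows. The E-box CACGTG was present in 17.6% and 7.26%, the GC box GGGCGG in 49.0% and 45.0%, CCAAT in 23.5% and 34.6%, TATAAA in 15.7% and 11.5%, and AGGTCA, a nuclear receptor half-site, in 5.88% and 13.8%. No test was made of these shares. The window shown for ABCC2 contains TATAAA.

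CG-1521 changed 15 ABC genes in SUM149PT and 8 in SUM190PT, whereas estradiol changed none in either line. In SUM149PT 8 members were higher and 7 lower with CG-1521 than with vehicle, where 14.4% of all genes were called higher and 19.9% lower. Over both directions 34.9% of the members and 34.3% of all genes were called, so the family was called about as often as any gene. In SUM190PT 2 members were higher and 6 lower, against 8.32% and 8.26% of all genes, and the share was 18.6% of members and 16.6% of all genes. The median difference of the members was 0.02 in SUM149PT and −0.04 in SUM190PT, beside −0.00 and −0.05 over all genes. Arrays with CG-1521 and with vehicle did not overlap in 9 members higher and 9 lower in SUM149PT, and in 3 and 7 in SUM190PT. Over all genes the groups did not overlap in 44.6% in SUM149PT and 31.5% in SUM190PT, so such separation was common. Under estradiol these shares of all genes were 46.8% and 45.6%. Among the members, changes of at least 2-fold against vehicle were found in ABCA12 and ABCG2 in SUM149PT and ABCC2, ABCC11 and ABCC12 in SUM190PT. The share of all genes with such a change was not counted. Leaving out 1 array at a time or changing the processing gave 12 to 17 called members in SUM149PT and 5 to 9 in SUM190PT, and the 5 came without the first CG-1521 array of SUM190PT.

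**Figure D1:**
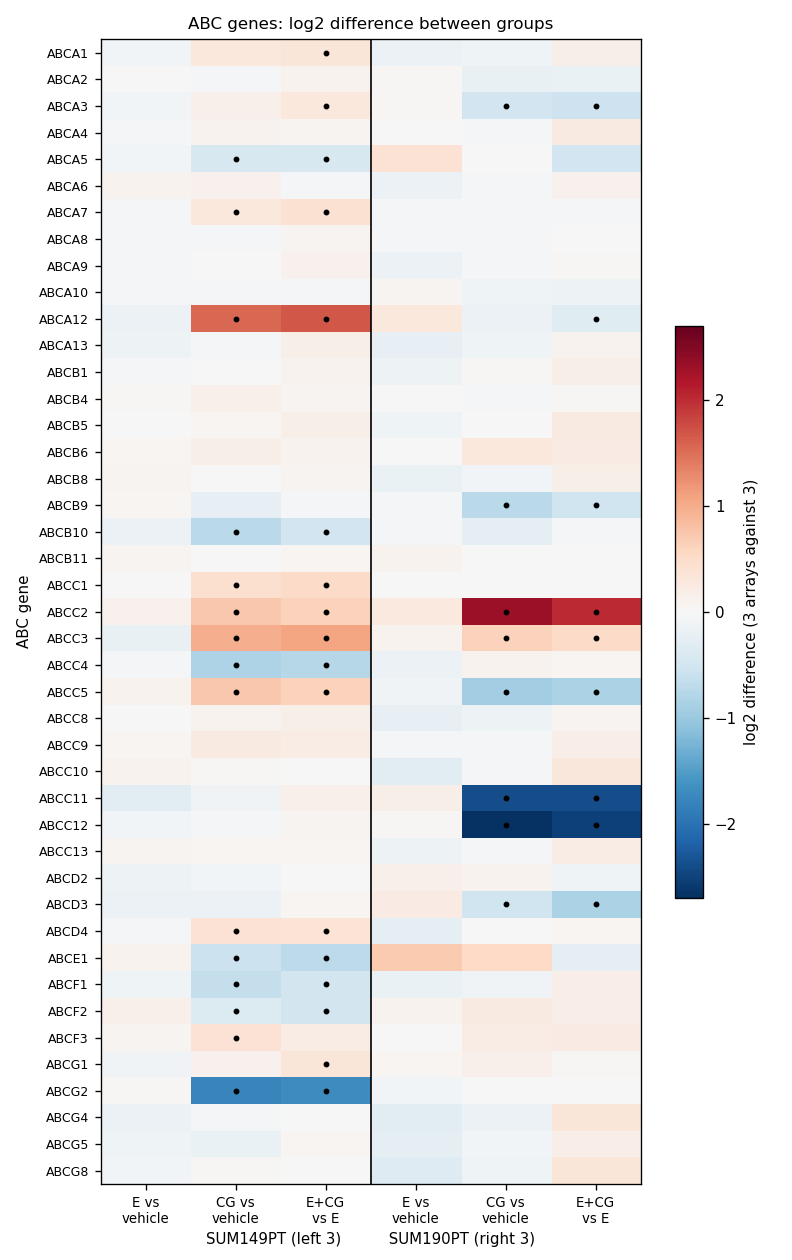
Log2 difference of each of the 43 ABC genes (rows) for estradiol against vehicle (E vs vehicle), CG-1521 against vehicle (CG vs vehicle) and both agents against estradiol (E+CG vs E), in SUM149PT on the left and SUM190PT on the right; red is higher, blue is lower, and a dot marks an adjusted p under 0.05. The estradiol columns hold no dot, ABCG2 and ABCA12 stand out in SUM149PT, and ABCC2, ABCC11 and ABCC12 in SUM190PT.

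The lines differed in 22 of the 43 members before any drug. In vehicle 7 members were higher and 15 lower in SUM149PT than in SUM190PT, where 24.5% and 22.1% of all genes were called in those directions. Over both directions this was 51.2% of members and 46.7% of all genes. The median size of the difference, regardless of sign, was 0.42 for the members and 0.28 for all genes. Of the called members, 13 differed at least 2-fold, 3 towards SUM149PT and 10 towards SUM190PT. The share of all genes with such a difference was not counted. The largest called differences towards SUM190PT were in ABCC11, ABCC12, ABCA12 and ABCC2, and those towards SUM149PT in ABCG2, ABCC4, ABCB10 and ABCE1. The 10 members lower by at least 2-fold in SUM149PT came from ABCA, ABCB and ABCC, which hold 12, 8 and 11 of the 43 members. ABCC4 and ABCB10, higher there by at least 2-fold, belong to these subfamilies too. Besides those described below, the 10 lower members included ABCB6, a porphyrin transporter (−1.92), and ABCA2, a lipid transporter of lysosomes (−1.10). ABCB8, a mitochondrial member, differed by −0.88 on its brightest probe set and by −0.56 on the mean of its 3 probe sets. ABCC9, the regulatory subunit of a potassium channel, was higher in SUM149PT by 0.47 (adjusted p = 0.00605). Its vehicle means were low, at 3.84 in SUM149PT and 3.37 in SUM190PT, where the median of the gene means was 6.13.

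**Figure D2:**
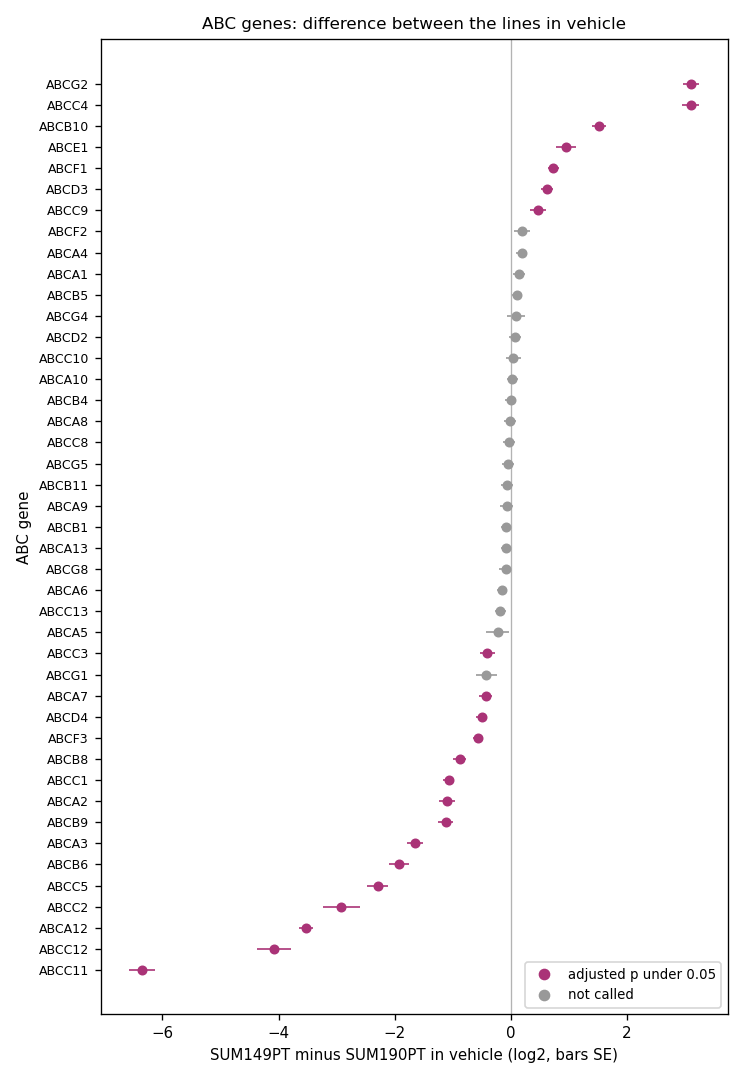
Difference between the lines in vehicle (SUM149PT minus SUM190PT, log2) for the 43 ABC genes, ordered by size, with bars for the standard error of the fit; coloured points have an adjusted p under 0.05. The points run from −6.35 for ABCC11 to 3.10 for ABCG2, with 7 called above 0 and 15 below.

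Of the multidrug pumps, ABCG2 fell in SUM149PT and ABCB1 was not called. ABCG2, the breast cancer resistance protein, exports many anticancer drugs and porphyrins. Its log2 values in SUM149PT were 6.59, 6.97 and 7.17 with vehicle and 5.24, 4.98 and 5.15 with CG-1521. All 3 treated arrays lay below all 3 vehicle arrays, a fall of 3.45-fold (log2 difference −1.79, SE 0.13, adjusted p = 4.86e-08). Values with estradiol alone were 6.73, 6.92 and 7.17, and with both agents 5.26, 5.20 and 5.25, a difference of −1.70 (SE 0.13, adjusted p = 7.85e-08). In SUM190PT the gene was lower in every group, at 3.64, 3.91 and 3.88 with vehicle and 4.01, 3.96 and 3.48 with CG-1521, and these overlapped (0.01, SE 0.14, adjusted p = 0.976). With estradiol SUM190PT had means of 3.73 ± 0.084 and, with CG-1521 added, 3.74 ± 0.067 (SD, n = 3). In vehicle the lines differed by 3.10 (SE 0.14, adjusted p = 3.14e-14), and their CG-1521 responses differed by −1.79 (SE 0.20, adjusted p = 2.35e-06).

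ABCB1, which encodes P-glycoprotein, was not called in any contrast. Its values were 3.89, 4.04 and 3.73 with vehicle and 3.97, 3.95 and 3.79 with CG-1521 in SUM149PT (0.02, SE 0.10, adjusted p = 0.912). In SUM190PT they were 3.96, 3.98 and 3.94 with vehicle and 4.04, 3.96 and 3.95 with CG-1521 (0.02, SE 0.10, adjusted p = 0.907). The groups overlapped in both lines, and all 24 arrays lay between 3.63 and 4.08. The median of the gene means was 6.13, and without detection calls these ABCB1 values could not be separated from background. The lines differed by −0.08 in vehicle (SE 0.10, adjusted p = 0.589).

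ABCC1 to ABCC5 export conjugates of glutathione, glucuronate or sulfate, cyclic nucleotides and drugs. In SUM149PT 4 of them rose and 1 fell with CG-1521, where 34.3% of all genes were called, and the other 6 of the 11 ABCC members were not called. ABCC2, the export pump of bile ducts and other apical membranes, had the largest rise of any member against vehicle. In SUM190PT it read 8.21, 7.76 and 7.40 with vehicle and 10.56, 10.32 and 9.39 with CG-1521. The groups did not overlap, and the gene rose 4.94-fold (2.30, SE 0.40, adjusted p = 0.00203). Both groups had the lowest value in the array numbered 3. With estradiol the SUM190PT values were 8.45, 8.33 and 7.39, and with both agents 10.59, 10.38 and 9.22 (2.00, SE 0.40, adjusted p = 0.00376). In SUM149PT ABCC2 read 4.93, 5.12 and 4.56 with vehicle and 5.57, 5.62 and 5.61 with CG-1521, again without overlap (0.73, SE 0.12, adjusted p = 1.25e-04). This call was lost with all 24 arrays in 1 fit (adjusted p = 0.0956). The lines differed by −2.92 in vehicle (SE 0.31, adjusted p = 4.32e-08) and by −1.57 in their response (SE 0.44, adjusted p = 0.0139).

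ABCC3, which exports glucuronides across the basolateral membrane, rose in both lines. In SUM149PT it read 6.86, 7.03 and 7.01 with vehicle and 8.05, 8.01 and 7.81 with CG-1521, a rise of 1.99-fold (0.99, SE 0.09, adjusted p = 4.52e-07). Under estradiol it rose 2.10-fold there, from 6.73, 6.62 and 6.92 to 7.84, 7.84 and 7.80 (1.07, SE 0.09, adjusted p = 1.91e-07). SUM190PT arrays read 7.16, 7.39 and 7.58 with vehicle and 7.77, 8.08 and 8.12 with CG-1521 (0.62, SE 0.16, adjusted p = 0.0181). The groups did not overlap in either line, and the SUM190PT call was lost without CG-1521 array 2 or 3 or vehicle array 1 or 2 (0.51 to 0.62, adjusted p 0.05004 to 0.0689). The lines differed by −0.41 in vehicle (adjusted p = 0.0127), a call that was lost without the third vehicle array of SUM190PT (−0.31, adjusted p = 0.0857) and without the first vehicle array of SUM149PT (−0.36, adjusted p = 0.0582).

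ABCC5, an exporter of cyclic nucleotides and hyaluronan, was called in opposite directions in the lines. In SUM149PT it read 6.51, 6.71 and 6.54 with vehicle and 7.31, 7.21 and 7.41 with CG-1521, all 3 treated arrays higher (0.72, SE 0.10, adjusted p = 1.87e-05). SUM190PT arrays read 8.95, 8.71 and 8.98 with vehicle and 7.54, 8.40 and 7.87 with CG-1521, all 3 lower (−0.94, SE 0.22, adjusted p = 0.0104). Without the first CG-1521 array of SUM190PT the fall was −0.75 and not called (adjusted p = 0.0543). The difference between the responses was 1.67 (SE 0.25, adjusted p = 5.01e-05), and that between the lines in vehicle was −2.30 (SE 0.17, adjusted p = 1.57e-10). Group means of SUM149PT and SUM190PT were 6.59 ± 0.107 and 8.88 ± 0.148 with vehicle, and 7.31 ± 0.101 and 7.94 ± 0.433 with CG-1521 (SD, n = 3).

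ABCC4 and ABCC1 changed in SUM149PT and not past the threshold in SUM190PT. ABCC4 exports cyclic nucleotides and prostaglandins. It read 7.38, 7.60 and 7.59 with vehicle and 6.86, 6.57 and 6.65 with CG-1521 in SUM149PT, without overlap (−0.83, SE 0.09, adjusted p = 3.28e-06). SUM190PT had lower ABCC4 values, at 4.44, 4.31 and 4.54 with vehicle and 4.23, 4.59 and 4.74 with CG-1521, and the groups overlapped (0.10, SE 0.18, adjusted p = 0.759). The lines differed by 3.10 in vehicle (SE 0.15, adjusted p = 4.53e-14), and the responses by −0.93 (SE 0.21, adjusted p = 0.00281). ABCC1, the first described multidrug resistance protein and an exporter of glutathione conjugates, read 7.40, 7.50 and 7.42 with vehicle and 7.94, 7.74 and 7.96 with CG-1521 in SUM149PT (0.44, SE 0.09, adjusted p = 0.00104). The SUM190PT values were 8.52, 8.53 and 8.49 with vehicle and 8.34, 8.52 and 8.69 with CG-1521, with the same mean (0.00, SE 0.11, adjusted p = 0.996). The difference between the ABCC1 responses (0.44, SE 0.14, adjusted p = 0.0306) was not called in 8 of 31 alternatives, among them those without CG-1521 array 1 or 3 or vehicle array 1 or 3 of SUM149PT and without CG-1521 array 1 or vehicle array 2 of SUM190PT (0.35 to 0.43, adjusted p 0.0541 to 0.0918). In vehicle ABCC1 differed by −1.07 (SE 0.10, adjusted p = 4.84e-09).

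**Figure D3:**
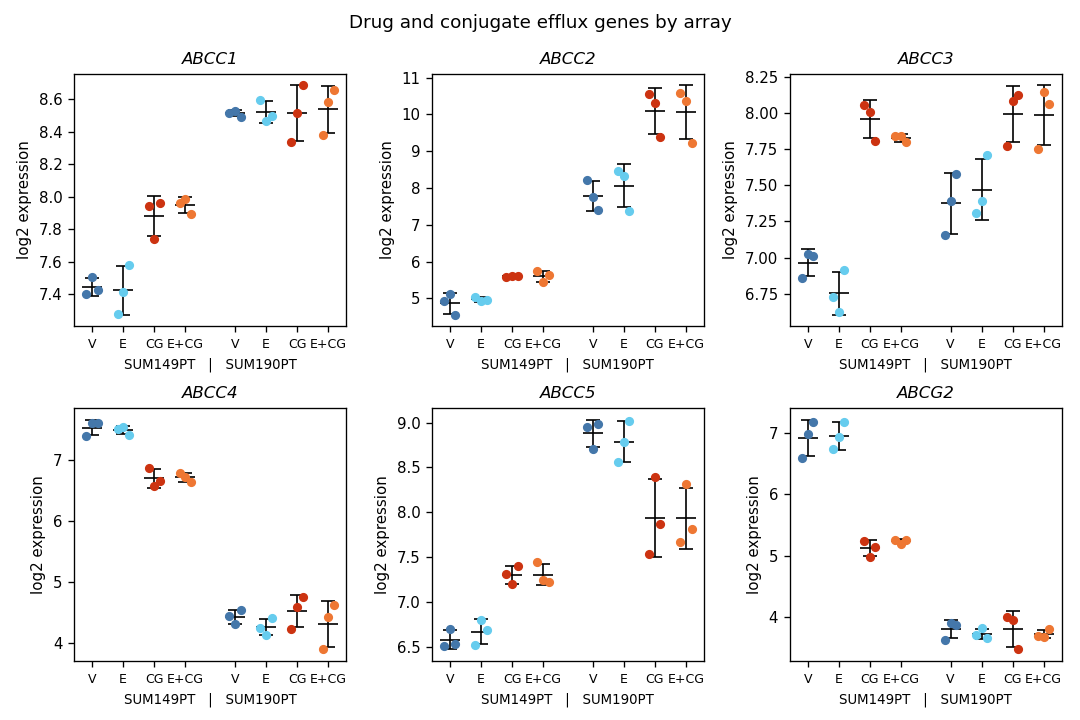
Log2 expression of ABCC1 to ABCC5 and ABCG2 on each array, in vehicle (V), estradiol (E), CG-1521 (CG) and both (E+CG) for each line; points are arrays, the horizontal mark is the mean of 3 and bars are SD, and each panel has its own axis. Groups with and without estradiol sit side by side, ABCG2 falls in SUM149PT from means of 6.91 to 5.12, ABCC2 rises in SUM190PT from 7.79 to 10.09, and ABCC5 moves up in SUM149PT and down in SUM190PT.

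ABCC11 and ABCC12 had the largest falls of the family, and both were in SUM190PT. They are adjacent genes on chromosome 16. ABCC11 exports lipophilic anions and conjugated steroids and is known for its variant that sets earwax type, through apocrine secretion. In SUM190PT it read 11.07, 10.97 and 11.27 with vehicle and 8.60, 9.27 and 8.25 with CG-1521. With estradiol it read 11.10, 11.15 and 11.56, and with both agents 8.55, 9.37 and 8.68. The groups with CG-1521 lay far below those without it, 5.27-fold without estradiol (−2.40, SE 0.25, adjusted p = 9.27e-05) and 5.29-fold with it (−2.40, SE 0.25, adjusted p = 7.92e-05). In SUM149PT ABCC11 read 4.45, 4.96 and 4.84 with vehicle and 4.65, 4.53 and 4.79 with CG-1521, which overlapped (−0.09, SE 0.14, adjusted p = 0.670). The vehicle groups differed by −6.35 (SE 0.22, adjusted p = 1.61e-16), and the responses by 2.30 (SE 0.31, adjusted p = 1.71e-05).

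ABCC12, whose substrates are less well known, read 7.99, 7.69 and 8.63 with vehicle and 5.45, 6.08 and 4.76 with CG-1521 in SUM190PT. With estradiol it read 7.78, 7.99 and 8.62, and with both agents 5.28, 6.31 and 5.22. It fell 6.37-fold (−2.67, SE 0.37, adjusted p = 4.98e-04) and 5.75-fold (−2.52, SE 0.37, adjusted p = 6.14e-04), again without overlap. In SUM149PT it read 3.98, 4.20 and 3.88 with vehicle and 4.05, 4.06 and 3.88 with CG-1521, and the groups overlapped (−0.03, SE 0.11, adjusted p = 0.882). The vehicle groups differed by −4.08 (SE 0.29, adjusted p = 5.61e-11) and the responses by 2.64 (SE 0.41, adjusted p = 9.03e-05). In both genes the second CG-1521 array and the second array with both agents were the highest of their groups. The files hold no probe sequences, so whether probes of one gene read the other was not tested.

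Among the ABCA genes, ABCA12 changed most. It carries glucosylceramides into the lamellar granules of keratinocytes. In SUM149PT it read 5.83, 6.08 and 6.07 with vehicle and 7.50, 7.35 and 7.77 with CG-1521. With estradiol it read 5.70, 5.82 and 6.01, and with both agents 7.38, 7.53 and 7.63. The rise was 2.92-fold without estradiol (1.54, SE 0.12, adjusted p = 4.79e-08) and 3.19-fold with it (1.67, SE 0.12, adjusted p = 1.78e-08), and no treated array overlapped a control. SUM190PT had the higher ABCA12 values in every group, at 9.70, 9.48 and 9.40 with vehicle and 9.26, 9.39 and 9.43 with CG-1521 (−0.17, SE 0.11, adjusted p = 0.334). There it read 9.84, 9.73 and 9.87 with estradiol and 9.33, 9.58 and 9.53 with both agents, which was called (−0.33, SE 0.11, adjusted p = 0.0444). That call was lost in 13 of 20 alternatives, including without estradiol array 1, 2 or 3 and without combination array 1 or 3 (−0.26 to −0.37, adjusted p 0.0755 to 0.164). The vehicle groups differed by −3.53 (SE 0.12, adjusted p = 6.93e-17) and the responses by 1.71 (SE 0.16, adjusted p = 2.73e-07).

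ABCA1 and ABCG1 export cholesterol to apolipoprotein particles, and neither was called for CG-1521 against vehicle. ABCA1 read 3.98, 4.17 and 4.17 with vehicle and 4.17, 4.54 and 4.46 with CG-1521 in SUM149PT (0.28, SE 0.12, adjusted p = 0.0774), and 3.96, 3.90 and 4.06 against 3.86, 3.87 and 3.84 in SUM190PT (−0.11, SE 0.09, adjusted p = 0.451). The SUM149PT groups met at 4.17, and leaving out the first CG-1521 array gave a call (0.39, adjusted p = 0.0201). ABCG1 read 4.37, 4.44 and 4.47 against 4.71, 4.46 and 4.49 in SUM149PT, with overlap (0.13, SE 0.10, adjusted p = 0.390), and 4.80, 4.80 and 4.94 against 5.01, 5.11 and 4.85 in SUM190PT, again with overlap (0.14, SE 0.22, adjusted p = 0.697). Under estradiol both were called higher with CG-1521 in SUM149PT, ABCA1 by 0.33 (adjusted p = 0.0370) and ABCG1 by 0.33 (adjusted p = 0.0159). ABCA1 lost that call without combination array 2 or estradiol array 1 or 3 (0.22 to 0.36, adjusted p 0.0530 to 0.178), and with quantile normalization or centred arrays. ABCG1 lost it without combination array 2 or estradiol array 3 (0.30 and 0.23, adjusted p = 0.0606 and 0.0937). The ABCG1 call was also lost with quantile normalization (0.25, adjusted p = 0.0550) and with all 24 arrays in 1 fit (0.33, adjusted p = 0.179). The lines did not differ past the threshold in ABCA1 (0.14, adjusted p = 0.314) or ABCG1 (−0.42, adjusted p = 0.0555), and ABCG1 was called without any one of the 3 estradiol arrays of SUM190PT.

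Other ABCA members changed by less than 2-fold. ABCA7, a phospholipid transporter, rose in SUM149PT (0.29, adjusted p = 0.0178), which was not called without CG-1521 array 2 or vehicle array 2 or 3 (0.27 to 0.28, adjusted p 0.0549 to 0.0593). ABCA5, a transporter of lysosomes and late endosomes, fell there (−0.43, adjusted p = 0.00178), though not past the threshold with all 24 arrays in 1 fit (adjusted p = 0.117). ABCA3, which loads lipids into the lamellar bodies of lung cells, fell in SUM190PT (−0.52, adjusted p = 0.0387). It was not called there without CG-1521 array 1 or 2, vehicle array 2 or 3 or estradiol array 2 (−0.47 to −0.52, adjusted p 0.0524 to 0.136). In vehicle ABCA3 was lower by 1.65 in SUM149PT (log2 difference −1.65, adjusted p = 7.32e-10). ABCA4, ABCA6, ABCA8, ABCA9, ABCA10 and ABCA13 were not called in any contrast.

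Of the organelle members of ABCB, ABCB10 fell in SUM149PT and ABCB9 in SUM190PT. ABCB10, a mitochondrial protein needed for haem synthesis, read 8.39, 8.42 and 8.34 with vehicle and 7.75, 7.62 and 7.63 with CG-1521 in SUM149PT, and the groups were apart (−0.72, SE 0.08, adjusted p = 3.85e-06). In SUM190PT it read 6.65, 6.93 and 7.02 with vehicle and 6.27, 6.72 and 6.87 with CG-1521, which overlapped (−0.25, SE 0.15, adjusted p = 0.301). In vehicle it was 2.87-fold higher in SUM149PT (1.52, SE 0.12, adjusted p = 5.10e-10). The difference between its responses was not called (−0.47, adjusted p = 0.0596), and was called without CG-1521 array 1 (−0.65, adjusted p = 0.00448) or vehicle array 3 of SUM190PT (−0.55, adjusted p = 0.0416). ABCB9, which moves peptides into lysosomes, fell in SUM190PT (−0.72, SE 0.15, adjusted p = 0.00728), and its difference in SUM149PT was −0.23 (adjusted p = 0.0722). The ABCB9 responses differed by 0.49, which was not called (adjusted p = 0.0635). TAP1 and TAP2, ABC genes outside the symbol rule that feed peptides to class I molecules, were higher in SUM149PT in vehicle by 0.80 and 1.24, and TAP1 fell slightly there with CG-1521 (−0.25, adjusted p = 0.0355). ABCB4, ABCB5 and ABCB11 were not called in any contrast.

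The peroxisomal ABCD3, which imports branched and dicarboxylic fatty acids, fell in SUM190PT. It read 9.78, 9.53 and 9.57 with vehicle and 8.86, 9.32 and 9.09 with CG-1521, without overlap (−0.53, SE 0.13, adjusted p = 0.0163). Without the first CG-1521 array or the first vehicle array the call was lost (−0.42 and −0.46, adjusted p = 0.0831 and 0.0516), whereas under estradiol the fall was −0.86 (SE 0.13, adjusted p = 8.94e-04) in SUM190PT. ABCD4, a lysosomal vitamin B12 transporter, rose in SUM149PT (0.39, SE 0.08, adjusted p = 0.00184).

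Genes of the ribosome-associated members fell in SUM149PT, except ABCF3. ABCE1, which splits ribosomes after termination, read 9.74, 9.73 and 9.66 with vehicle and 9.08, 9.20 and 9.09 with CG-1521, and all treated arrays were lower (−0.59, SE 0.08, adjusted p = 2.82e-05). The SUM190PT values were 9.26, 8.69 and 8.33 with vehicle and 9.24, 9.31 and 9.34 with CG-1521, so that the first vehicle array lay with the treated ones (0.53, SE 0.22, adjusted p = 0.124). Without that array the ABCE1 difference was 0.78 and called (adjusted p = 0.0235). The lowest vehicle value (8.33) came from array 3, which deviated in the MCM genes (−1.78), and without array 3 the difference is smaller. Under estradiol the CG-1521 difference was −0.70 in SUM149PT (adjusted p = 4.54e-06) and −0.25 in SUM190PT (adjusted p = 0.423). The ABCE1 responses differed by −1.12 without estradiol (SE 0.25, adjusted p = 0.00248) and by −0.45 with it, which was not called (SE 0.25, adjusted p = 0.225), and the lines in vehicle by 0.95 (SE 0.18, adjusted p = 7.98e-05).

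ABCF1, which promotes translation initiation, read 9.44, 9.61 and 9.59 with vehicle and 9.03, 8.84 and 8.86 with CG-1521 in SUM149PT, without overlap (−0.64, SE 0.08, adjusted p = 9.45e-06). ABCF2 fell by 0.36 there (log2 difference −0.36, adjusted p = 0.00285), not called with all 24 arrays in 1 fit (adjusted p = 0.0602) and −0.24 with quantile normalization (adjusted p = 0.0441). ABCF3 rose by 0.38 (adjusted p = 0.00129). None of the 4 was called in SUM190PT. The responses of the lines differed for ABCF1 (−0.54, adjusted p = 0.00519) and ABCF2 (−0.61, adjusted p = 0.0309), and the latter was not called in 10 of 31 alternatives, including without CG-1521 array 1, 2 or vehicle array 3 of SUM190PT and CG-1521 array 1 or 3 or vehicle array 1 or 3 of SUM149PT (−0.41 to −0.61, adjusted p 0.0501 to 0.0993).

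**Figure D4:**
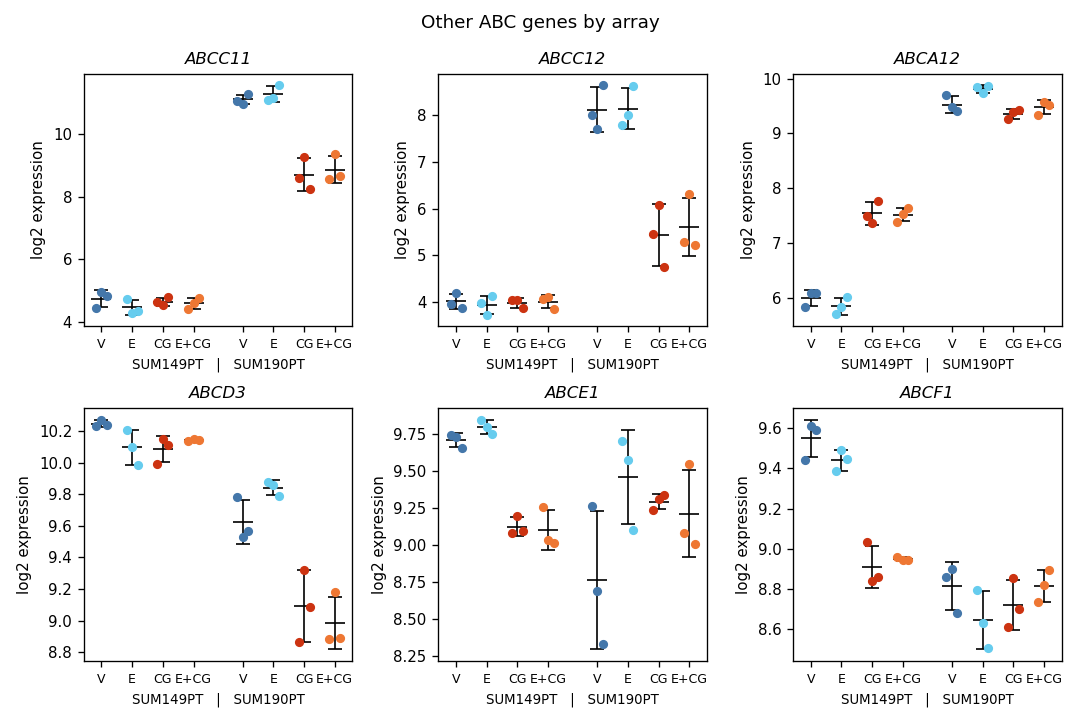
Log2 expression of ABCC11, ABCC12, ABCA12, ABCD3, ABCE1 and ABCF1 on each array, in vehicle (V), estradiol (E), CG-1521 (CG) and both (E+CG) for each line; points are arrays, the horizontal mark is the mean of 3 and bars are SD, and each panel has its own axis. ABCC11 and ABCC12 fall with CG-1521 in SUM190PT and sit low in every SUM149PT group, ABCA12 rises in SUM149PT, and the SUM190PT vehicle arrays of ABCE1 spread from 8.33 to 9.26.

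The CG-1521 response differed between the lines in 13 members, 7 with the higher value in SUM149PT and 6 in SUM190PT, where 9.01% and 11.6% of all genes were called in those directions. This was 30.2% of the members and 20.6% of all genes. Under estradiol the same comparison called 9 and 5 members, against 10.6% and 9.86% of all genes, or 32.6% of members and 20.4% of all genes. The median size of the difference was 0.23 for members and 0.25 for all genes without estradiol, and 0.30 and 0.24 with it. Called members without estradiol were ABCA3, ABCA12, ABCC1, ABCC2, ABCC4, ABCC5, ABCC11, ABCC12, ABCD4, ABCE1, ABCF1, ABCF2 and ABCG2. Of these, ABCG2 and ABCC4 in SUM190PT had vehicle means of 3.81 and 4.43, and ABCC12 and ABCC11 in SUM149PT of 4.02 and 4.75. The median of the gene means was 6.13. Without detection calls it could not be assessed whether these genes could fall further in those lines. The ABCD4 call was lost in 16 of 31 alternatives, and that of ABCA3 without the second vehicle array of SUM149PT (0.57, adjusted p = 0.0575). Of the 43 genes, 3 were called against vehicle in both lines (ABCC2 and ABCC3 in the same direction, ABCC5 in the opposite one), 12 in SUM149PT alone, 5 in SUM190PT alone and 23 in neither. Of all genes 34.3% were called in SUM149PT and 16.6% in SUM190PT, and the same split over all genes was not counted. Across the members the responses of the lines had a Pearson correlation of 0.116 and a Spearman correlation of 0.127 (n = 43 genes on the same 12 arrays, which are not independent replicates), and across all 18417 genes the Pearson correlation was 0.37.

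**Figure D5:**
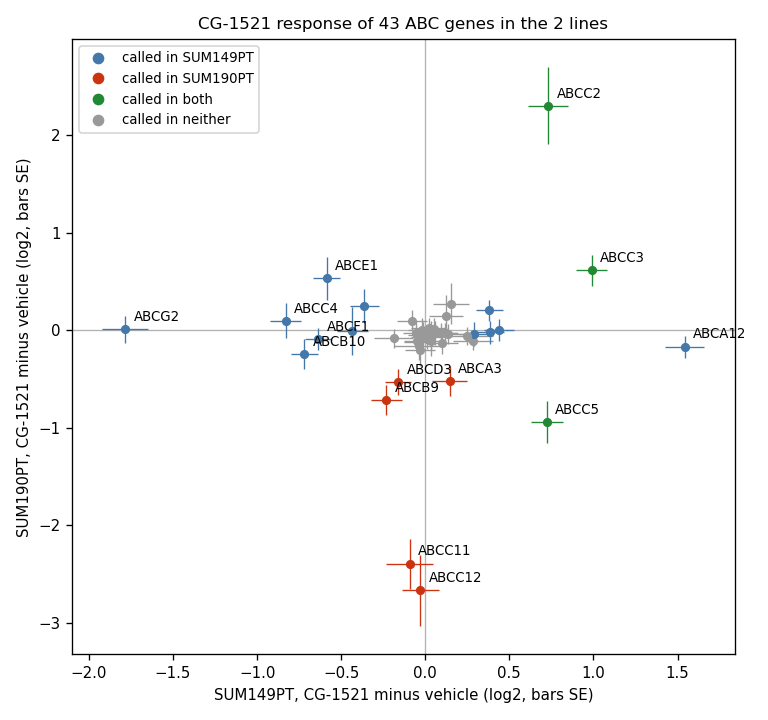
CG-1521 minus vehicle (log2) in SUM149PT on the horizontal axis and in SUM190PT on the vertical axis for the 43 ABC genes, with bars for the standard error of the fit; colours give the line or lines in which the gene had an adjusted p under 0.05. ABCG2 and ABCA12 lie near the horizontal axis, ABCC11 and ABCC12 near the vertical one, ABCC2 and ABCC3 lie in the upper right, and ABCC5 lies in the lower right.

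Estradiol did not change any ABC gene past the threshold, which the comparison of estradiol with vehicle asked directly. In SUM149PT limma called 0 members with estradiol alone, where 0% of all genes were called in either direction. There 1 member (ABCC3, −0.21) and 845 of all 18417 genes had an unadjusted p under 0.05. In SUM190PT it also called 0 members, where 0.00543% of all genes were higher and 0% lower. There 6 of the 43 members and 4531 of all 18417 genes had an unadjusted p under 0.05. Of the 6 members ABCE1 showed the largest difference, from 9.26, 8.69 and 8.33 to 9.70, 9.58 and 9.10 (0.70, SE 0.22, adjusted p = 0.0951). The groups overlapped through the first vehicle array, and without it ABCE1 (0.95, adjusted p = 0.0181) and ABCG8, a sterol exporter (−0.48, adjusted p = 0.0461), were called. Without the third vehicle array, which deviated in the MCM genes, the ABCE1 difference is smaller. Numbered arrays of SUM190PT deviated together between estradiol and vehicle (correlations 0.443, 0.229 and 0.729), and the fit with the replicate number as a block also called 0 members.

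Adding estradiol to CG-1521 called 0 members in either line, where 0% of all genes were higher and 0% lower. An unadjusted p under 0.05 was found for 1 member in each line (ABCB9, 0.22, in SUM149PT and ABCA4, 0.26, in SUM190PT). The same cut was met by 1156 of all 18417 genes in SUM149PT and 889 in SUM190PT. Numbered SUM190PT arrays again deviated together (0.518, 0.434 and 0.502), and the replicate block called 0. The interaction, which asks whether the CG-1521 response depends on estradiol, called 0 members in both lines. In SUM149PT 0% of all genes were called in either direction. An unadjusted p under 0.05 was found there for 0 members and 1046 of all 18417 genes. In SUM190PT 0.375% of all genes were called higher and 0.141% lower, and 4159 of all genes had an unadjusted p under 0.05. So did 2 members, ABCE1 (−0.78, adjusted p = 0.170) and ABCG4 (0.49, adjusted p = 0.181). Without the first vehicle array ABCE1 was called (−1.03, adjusted p = 0.0398). Its interaction is smaller in size without the third vehicle array, which deviated in the MCM genes.

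In the presence of estradiol CG-1521 called 10 members higher and 7 lower in SUM149PT, against 16.5% and 20.4% of all genes. In SUM190PT it called 2 higher and 7 lower, against 12.5% and 13.2%. These comparisons use other arrays than those without estradiol. The overlap of the calls without and with estradiol was not counted over all genes in either line. In SUM149PT 14 members were called in both, 93.3% of the first list and 82.4% of the second, all in the same direction. ABCF3 was called without estradiol alone, and ABCA1, ABCA3 (0.28, adjusted p = 0.0464) and ABCG1 with it alone. ABCA3 lost that call in 11 of 19 alternatives, and without the second estradiol array its value was 0.18 (adjusted p = 0.220). It was also lost without any one of the 3 combination arrays, estradiol array 3, vehicle array 3 or CG-1521 array 1 or 2 (0.27 to 0.31, adjusted p 0.0509 to 0.109). In SUM190PT all 8 members called without estradiol were called again in the same direction, which is 88.9% of the second list, and ABCA12 was added. Of the 8, ABCC3 and ABCB9 lost the call under estradiol in 4 leave-outs of 1 array each (ABCC3 without combination array 2 or 3 or estradiol array 1 or 2; ABCB9 without combination array 1 or 3 or estradiol array 1 or 2), ABCC5 without combination array 1 (−0.72, adjusted p = 0.0612) and ABCA3 without combination array 1 or estradiol array 2 or 3 (−0.39 to −0.52, adjusted p 0.0668 to 0.0961). The count in SUM190PT fell to 5 without the second estradiol array and without the first combination array, and otherwise ranged up to 12.

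For 17 members no contrast gave a call. Besides those named above they were ABCC8, ABCC10, ABCC13, ABCD2, ABCG4, ABCG5 and ABCG8. Their values lay between 2.78 and 6.84 over all arrays, and their largest difference for CG-1521 against vehicle was 0.19 in size (ABCG5 in SUM149PT). Of the 17, 16 lay below the median gene level, and low values could not be separated from background. The share of all genes without a call in any contrast was not counted.

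Genes that work with the ABC proteins were described as lists. Of all genes, 14.4% rose and 19.9% fell with CG-1521 in SUM149PT (median −0.00), and 8.32% rose and 8.26% fell in SUM190PT (median −0.05). Of 30 measured genes of glutathione and glucuronide conjugation, which make substrates for ABCC pumps, 9 rose and 0 fell with CG-1521 in SUM149PT (median 0.16), led by GCLC (0.89) and GSR (0.78), which make and recycle glutathione, and the transferase GSTO1 (0.71). In SUM190PT 5 rose and 6 fell (median −0.09), with GCLM (1.81) and GCLC (1.38) higher and the glucuronosyltransferase UGT2B28 lower (−2.48). Of 15 nuclear receptors and sensors that regulate efflux genes, 2 rose and 3 fell in SUM149PT (PPARG −0.83, NR3C1 −0.71, PPARA 0.45), and 3 rose and 0 fell in SUM190PT (NFE2L2, the antioxidant response factor, 0.69; KEAP1 0.43; NR3C1 0.41). Of 18 organic ion uptake carriers, 1 rose and 2 fell in SUM149PT. In SUM190PT 2 of them rose, SLCO4A1 (1.63) and SLC22A5 (0.99), and 3 others fell.

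Partners of the lipid members moved in both directions, beside 14.4% of all genes higher and 19.9% lower in SUM149PT and 8.32% and 8.26% in SUM190PT. Of 20 genes of cholesterol efflux and lipoproteins, 6 rose and 3 fell in SUM149PT (median 0.02), with the lipoprotein receptor SCARB1 (−1.26) and the receptor ligase MYLIP (−1.08) lower and the lysosomal lipase LIPA higher (1.02). In SUM190PT 2 rose and 5 fell (median −0.24), among them the sterol factors SREBF1 (−1.10) and SREBF2 (−0.95). Of 16 sphingolipid and phospholipid enzymes, 4 rose and 6 fell in SUM149PT and 4 rose and 3 fell in SUM190PT. ELOVL4, which elongates fatty acids for skin lipids, rose in SUM149PT by 1.08, and the ceramide synthase CERS6 fell in both lines (−0.81 and −1.07). Of 22 peroxisome genes, 3 rose and 6 fell in SUM149PT and 0 rose and 3 fell in SUM190PT, and the beta-oxidation enzyme HSD17B4 rose in SUM149PT (0.80) and fell in SUM190PT (−1.56).

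Partners of the remaining subfamilies were described the same way, against the same shares of all genes (14.4% higher and 19.9% lower in SUM149PT, 8.32% and 8.26% in SUM190PT). Of 23 genes of haem and iron-sulfur synthesis and storage, 5 rose and 10 fell in SUM149PT (median −0.22), and 4 rose and 2 fell in SUM190PT (median −0.02). HMOX1, which degrades haem, and the ferritin chain FTL rose in both lines, HMOX1 by 1.55 and 3.27 and FTL by 1.73 and 1.56. Of 23 genes of ribosome recycling and initiation, 4 rose and 10 fell in SUM149PT (median −0.15), with EIF1AX at −0.90 and EIF3B at −0.52, and 3 rose and 1 fell in SUM190PT (median 0.18). Under estradiol 3 rose and 12 fell in SUM149PT (median −0.25), and 0 rose and 4 fell in SUM190PT (median −0.14). The responses of the lines differed in 12 of these 23 without estradiol, 2 higher and 10 lower in SUM149PT, where 20.6% of all genes differed. With estradiol 3 were higher and 3 lower, where 20.4% of all genes differed. Of 11 peptide loading genes, 1 rose and 4 fell in SUM149PT, with PSMB9 (−0.82) and PSMB8 (−0.64) among them, and 2 rose and 1 fell in SUM190PT. Both potassium channel pore genes that pair with ABCC8 and ABCC9 were measured, and 0 were called in either line.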

How the data were processed

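Per the labels' protocols, column-purified RNA was amplified, labelled with biotin and hybridized to Affymetrix Human Gene 1.0 ST arrays, and 3 independent experiments were made. The authors deposited RMA values on a log2 scale, from Affymetrix Expression Console per the submitters' processing notes, with versions not given in the sources used here. The sources used here do not say if RMA was run over both lines at once. All 24 columns were used.

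Of 33297 probe sets, 19460 had a single gene symbol, 1754 several and 12083 no entry. The probe set with the highest mean stood for each of 769 genes with more than 1, giving 18417 genes. The 2 ABC pseudogenes and ABC genes without a single-symbol probe set were not analysed here. limma 3.58.1 in R 4.3.3 was fitted on the 12 arrays of a line, or on all 24 between lines, two-sided, after tests on simulated data, and adjusted over all genes. Members and lists were chosen with earlier results of these data known. Array-by-array values are given for members that changed at least 2-fold with CG-1521 against vehicle, the 4 largest called differences each way between lines and the 4 largest differences in response, and for ABCA1, ABCB1, ABCC1 to ABCC5, ABCE1, ABCG1 and ABCG2. ABCD3 and ABCF1 were added after their values were seen. The number of arrays limits precision. Alternatives were the replicate block, the samples in the fit, quantile normalization, centring on the median, removal of dim genes, the mean of probe sets and leaving out arrays. Python 3.11.15, pandas 2.3.3 and matplotlib 3.10.9 were used for tables and figures.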

Additional observations from a re-analysis of the deposited data

Results flagged for a closer look

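The response to CG-1521 differed between the lines, by a test of the difference itself over all 24 arrays, in 13 members without estradiol. Each value is the log2 change of SUM149PT minus that of SUM190PT. It was above 0 for ABCC12 (2.64), ABCC11 (2.30), ABCA12 (1.71), ABCC5 (1.67), ABCA3 (0.67), ABCC1 (0.44) and ABCD4 (0.41). It was below 0 for ABCG2 (−1.79), ABCC2 (−1.57), ABCE1 (−1.12), ABCC4 (−0.93), ABCF2 (−0.61) and ABCF1 (−0.54). ABCG2 and ABCC4 had low values in SUM190PT, and ABCC11 and ABCC12 in SUM149PT. Whether they could fall further there could not be assessed. The lysosomal ABCD4 was not called in 16 of 31 alternatives (adjusted p = 0.0430, and 0.05001 to 0.131 where the call was lost), among them each that left out 1 CG-1521 array of either line and those without vehicle array 1 or 3 of SUM149PT or 3 of SUM190PT. ABCA3 was not called without the second vehicle array of SUM149PT (0.57, adjusted p = 0.0575).

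Under estradiol 14 members differed. Values were above 0 for ABCC12 (2.59), ABCC11 (2.53), ABCA12 (2.01), ABCC5 (1.48), ABCD3 (0.90), ABCA3 (0.84), ABCC3 (0.56), ABCC1 (0.50) and ABCA7 (0.45), and below 0 for ABCG2 (−1.71), ABCC2 (−1.37), ABCC4 (−0.82), ABCF2 (−0.69) and ABCF1 (−0.66). ABCC2, ABCC3 and ABCA7 were not called in 8, 9 and 9 of 31 alternatives. ABCC2 was then at −1.04 to −1.39 (adjusted p 0.0518 to 0.0948), ABCC3 at 0.44 to 0.57 (adjusted p 0.0550 to 0.113) and ABCA7 at 0.35 to 0.46 (adjusted p 0.0532 to 0.126). Leaving out the third estradiol array or the first combination array of SUM190PT was among them for all 3 genes. The low values of ABCG2 and ABCC4 in SUM190PT and of ABCC11 and ABCC12 in SUM149PT apply here too. Line, CG-1521 dose and medium cannot be told apart in these differences.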

How the results depend on the processing

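The 98 calls of single members gave 2446 values under the alternatives, of which 2310 kept their direction and stayed past the threshold, 136 were no longer called and 0 reversed, and 71 of the 98 were called in every alternative run. Counts of called members stayed within 1.5 times the reported count except in SUM190PT. There, leaving out 1 array at a time gave 5 to 8 members for CG-1521 against vehicle, 5 to 9 for CG-1521 under estradiol, 0 to 2 for estradiol against vehicle and 0 to 1 for the interaction. With all 24 arrays in 1 fit estradiol against vehicle called 2 members (ABCE1 and ABCG8) and the interaction 1 (ABCE1). The cause was not tested. With array 3 left out of both the vehicle and the estradiol group of SUM190PT the counts were 7 for CG-1521, 7 under estradiol, 22 between the lines in vehicle, 13 for the difference in response and 12 under estradiol. The replicate block gave 16 and 17 members in SUM149PT, 8 and 8 in SUM190PT, 20 between the lines in vehicle and 16 and 16 for the differences in response, without and with estradiol. With it the vehicle groups of the lines were not called different in ABCC3 (−0.21, adjusted p = 0.204) or ABCC9 (0.44, adjusted p = 0.0543), ABCA12 was not called for CG-1521 under estradiol in SUM190PT (adjusted p = 0.0532), and ABCA1 was called in SUM149PT (0.28, adjusted p = 0.0198). Numbered arrays deviated together at over 0.1 in all 3 pairs only in the contrasts named in the report, where it changed no call. No probe had a detection call, so the limit set by background could not be assessed.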
